A study of Mus musculus with 12 samples.

Results

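The stress hormone genes described here are 10 members, namely Crh, Crhr1, Crhr2, Crhbp, Nr3c1, Nr3c2, Fkbp5, Hsd11b1, Sgk1 and Tsc22d3, which were matched in the data by gene symbol. All 10 were found among the 33024 gene symbols of the deposited count table, and all 10 passed the expression filter that left 16059 genes. Cortex RNA was sequenced from 12 wildtype C57BL/6 mice, 7 of which drank only water (Control) and 5 of which were given ethanol (EtOH). Per the study's methods, drinking began at 30 days of age, and the ethanol mice had a bottle of 20% (v/v) ethanol beside one of water in each of 35 dark-phase sessions, which lasted 12 h, whereas controls had water in both. Both groups then went through 14 days of abstinence and a battery of behavioural tests, swimming tests among them, before they were sacrificed under anaesthesia and perfused. Each library came from 1 mouse, the tissue was a whole bulk extract, and the sex of the mice is not given in the sources used here.

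Corticotropin-releasing hormone (CRH) is the peptide with which the hypothalamus starts the hormonal stress response, and in the cortex it is made mainly by inhibitory interneurons. It acts through the receptors CRHR1 and CRHR2 and is held back by the secreted binding protein encoded by Crhbp. The adrenal steroid corticosterone, released at the end of this axis, enters the brain and binds 2 nuclear receptors, the high-affinity mineralocorticoid receptor (Nr3c2) and the lower-affinity glucocorticoid receptor (Nr3c1). Hsd11b1 encodes the enzyme that regenerates active corticosterone within cells, whilst Fkbp5, Sgk1 and Tsc22d3 are widely used readouts of receptor activity. Nr3c2 is known for its high level in the hippocampus, and Crhr2 for its expression in the choroid plexus.

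The 3 target genes are shown first with the DNA at a transcription start, since the receptors bind the response element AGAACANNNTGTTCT, a palindrome that reads alike on both strands. The letters were searched on both strands in the RefSeq promoter windows of build GRCm38.p6, each of which covers 250 bases before to 50 bases after a start. The table held 15 windows of 8 members, all but Crh and Nr3c1. The full element was found in 3 of 32851 windows (0.00913%), and 1 of these was a window of Sgk1, on the plus strand at chr10:21993640-21993939, where it lies at -189 to -175 relative to the start. Its letters are in capitals, and it is shown because Sgk1 was the only target of the 3 called different between the groups.
Sgk1: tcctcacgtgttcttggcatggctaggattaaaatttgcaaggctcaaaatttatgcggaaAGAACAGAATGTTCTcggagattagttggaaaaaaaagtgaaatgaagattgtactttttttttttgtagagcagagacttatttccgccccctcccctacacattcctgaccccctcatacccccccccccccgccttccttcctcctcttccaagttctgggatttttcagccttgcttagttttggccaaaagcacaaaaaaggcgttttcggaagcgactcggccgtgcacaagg

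The half-site AGAACA, or TGTTCT on the other strand, is contained in the full element and was found in 19.0% of all windows. Outside the full element, the Sgk1 window above holds a further half-site at -242 to -237, left in lower case. It also occurred in the Sgk1 windows at chr10:21881934-21882233 and chr10:21991973-21992272. Among the windows of Tsc22d3 it occurred in 1 of 3, on the minus strand at chrX:140600473-140600772 of GRCm38.p6, where it is set in capitals. The single window of Fkbp5, on the minus strand at chr17:28486100-28486399, held neither form and is given for comparison.
Tsc22d3: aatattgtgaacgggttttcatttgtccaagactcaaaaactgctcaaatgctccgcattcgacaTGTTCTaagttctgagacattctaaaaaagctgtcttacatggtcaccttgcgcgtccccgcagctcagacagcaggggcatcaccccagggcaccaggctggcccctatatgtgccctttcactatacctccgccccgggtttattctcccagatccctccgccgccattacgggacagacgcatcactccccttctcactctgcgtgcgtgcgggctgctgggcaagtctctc
Fkbp5: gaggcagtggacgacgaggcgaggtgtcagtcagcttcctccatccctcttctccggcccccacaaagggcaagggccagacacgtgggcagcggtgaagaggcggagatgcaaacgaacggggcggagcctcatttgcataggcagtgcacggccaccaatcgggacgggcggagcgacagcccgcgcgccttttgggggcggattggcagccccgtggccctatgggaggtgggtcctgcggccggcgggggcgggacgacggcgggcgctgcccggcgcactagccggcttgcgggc

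A match of letters is no measurement of binding, and the counts per gene do not tell which of the 6 Sgk1 starts was in use. The shorter core ACANNNTGT, which the full element contains, was present in 2 of the 6 Sgk1 windows and in 6.85% of all windows. For CRH signalling, which runs through cyclic AMP, the element TGACGTCA occurred in 1.79% of all windows and in none of these 15 windows. Its half-site TGACG, or CGTCA on the other strand, occurred in 20.8% of all windows and in 1 window each of Crhbp, Sgk1 and Tsc22d3.

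Of the 10 members, 3 rose and 2 fell in the ethanol mice (edgeR quasi-likelihood test, Benjamini-Hochberg adjusted p below 0.05 with a log2 change, ethanol over control, of more than 0.5 either way; SE stands for its standard error). Nr3c2, Hsd11b1 and Crhr2 rose, and Crh and Sgk1 fell. Over all genes tested, the same rule called 8.29%, of which 4.20% were higher and 4.09% lower. With no fold minimum, 7 of the 10 members had an adjusted p under 0.05, against 23.7% of all genes. The groups did not overlap for 2 members, Nr3c2 and Hsd11b1, both higher in every ethanol mouse than in any control, whereas 4.84% of all genes were separated in that direction and 4.96% in the other. The median log2 change was 0.13 over the members and 0.0001 over all genes. Nr3c1, Fkbp5 and Tsc22d3 did not pass the adjusted p, and Crhr1 and Crhbp passed it with a difference below the fold minimum.

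**Figure D1:**
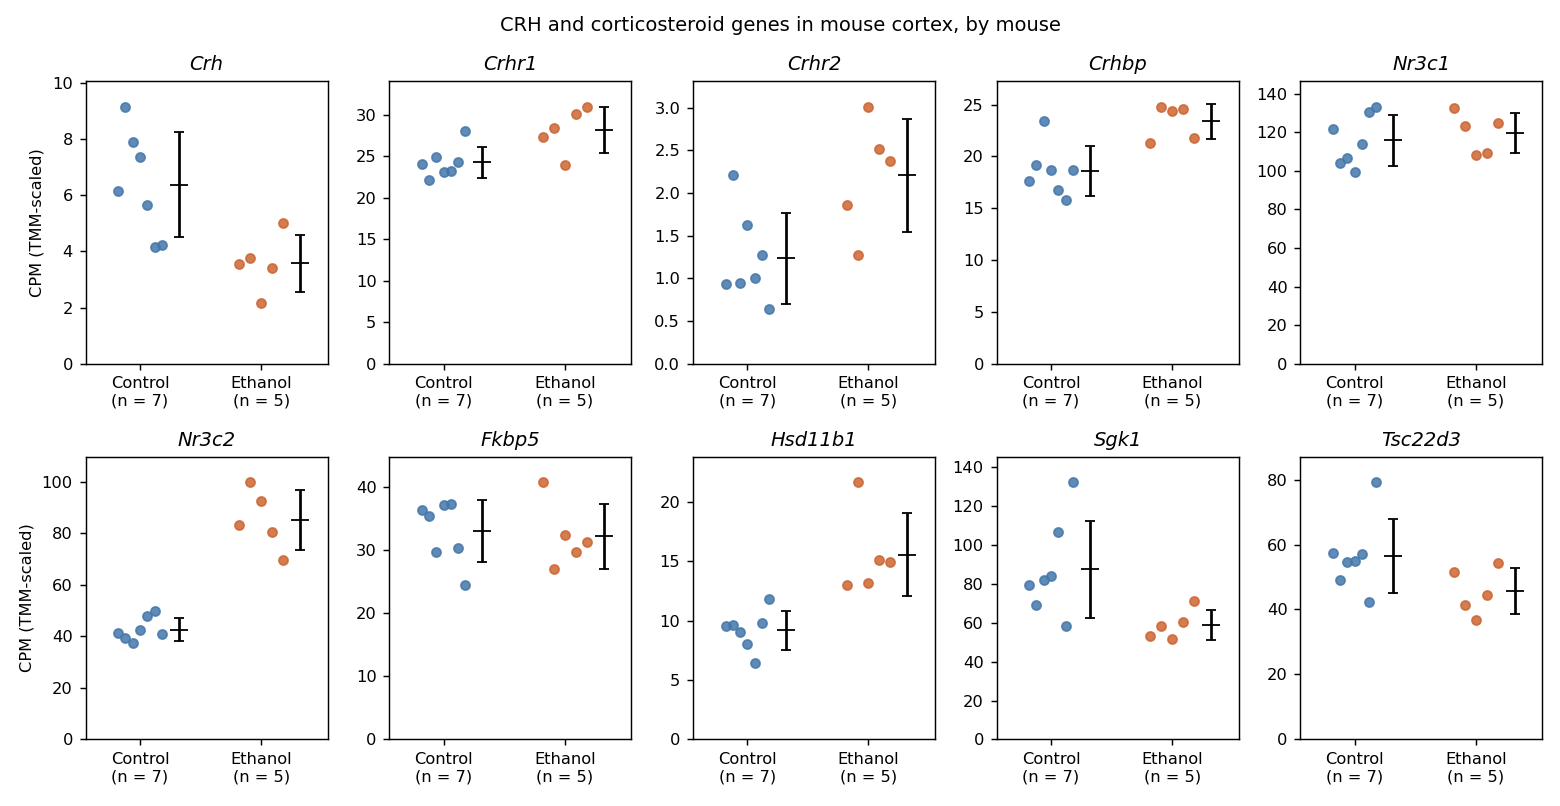
CPM (counts scaled to library size with TMM factors, linear axes from 0) of the 10 members; each point is 1 mouse, 7 controls and 5 ethanol mice, and bars give the mean and SD. Nr3c2 and Hsd11b1 separate the groups, Nr3c1 and Fkbp5 overlap over most of their range, and the controls spread more widely than the ethanol mice for Sgk1.

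Values are given as CPM, counts scaled to the library size after TMM normalization. Library totals ranged from 31768079 to 40690226 counts in the controls and from 32048725 to 42183031 in the ethanol mice, and each group held 1 deeper library, control mouse 5 and ethanol mouse 1. At these depths 3 counts, taken as the floor of detection, amount to between 0.0711 and 0.0944 CPM, so that every member lay well above the floor in every mouse. Slc17a7, the vesicular glutamate transporter gene that defines cortical excitatory neurons, was high in both groups, with a mean of 1955 CPM in the controls and 1906 CPM in the ethanol mice. Of the 7 markers of these neurons, Fezf2 was called higher (log2 change 0.60, edgeR adjusted p = 1e-04), whilst Tbr1 at -0.40, Cux2 at 0.31 and Neurod6 at 0.26 passed the adjusted p below the fold minimum (edgeR adjusted p = 0.00222, 0.0181 and 0.0286). Markers of other brain regions moved with the groups. All 10 striatal markers were called lower, with a summed level of 995 to 2385 CPM in the controls and 235 to 302 CPM in the ethanol mice. All 9 hippocampal markers were called higher, with sums of 30.4 to 37.5 CPM and 144 to 194 CPM; Iyd and Dsp, at 0.0854 and 0.311 CPM on average, were nearest to 0 in the controls. Of the lists for meninges, astrocytes, microglia, endothelial cells and blood, 2 of 30 markers were called higher and 1 lower. Among the astrocyte markers Gfap rose (log2 change 0.77, edgeR adjusted p = 3.15e-05), and the astrocyte score, the mean log2 CPM of its 7 markers, was 7.82 to 7.95 in the controls and 8.04 to 8.14 in the ethanol mice. Of the 6 microglial markers none was called, but their sums did not overlap, with 293 to 320 CPM in the controls and 253 to 277 CPM in the ethanol mice. In bulk tissue, fewer cells of a type and less RNA per cell cannot be told apart, and marker scores of striatum and hippocampus (mean log2 CPM) accounted for 95.8% and 95.6% of the variance of group membership, so that tissue content and ethanol cannot be told apart here either.

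Amongst the ligand and its partners, Crh itself, the releasing hormone, fell in the ethanol mice. Its gene lies on the minus strand of chromosome 3 (GRCm39, 19747565 to 19749655). The ethanol mice 1 to 5 had 3.57, 3.76, 2.15, 3.40 and 5.02 CPM, against a lowest, median and highest value of 4.15, 6.17 and 9.16 CPM in the controls. All but ethanol mouse 5 lay below every control, and the 2 lowest controls, mice 6 and 7, lay below that mouse. The group means were 3.58 ± 1.02 (SD, n = 5) and 6.38 ± 1.88 CPM (SD, n = 7), a log2 change of -0.83 (SE 0.21, edgeR adjusted p = 0.00895). It held its call with any 1 mouse left out, with log2 changes from -0.99 to -0.70. The call was lost with the oligodendrocyte score (-0.73, edgeR adjusted p = 0.202) or the hippocampus score (-0.59, edgeR adjusted p = 0.916) as a covariate, and the sign turned with the striatum score (0.28, edgeR adjusted p = 0.985). A list of 9 interneuron markers, the cells that hold most cortical CRH, had summed levels that did not overlap between the groups, with 847 to 911 CPM in the ethanol mice and 1045 to 1387 CPM in the controls. Gad2, Slc32a1 and Npy were the 3 of these 9 markers called lower, and their part in the fall of Crh was not tested. Sst and Vip, which mark particular interneuron classes, had log2 changes of -0.23 and -0.21 and were not called (edgeR adjusted p = 0.0943 and 0.120). Gad1, at -0.31, passed the adjusted p below the fold minimum, whereas Lhx6 was level at 0.03 (edgeR adjusted p = 0.00397 and 0.776). The main neurons of the striatum also use GABA and express Gad2 and Slc32a1.

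Crhbp, which encodes the binding protein that sequesters CRH, differed in the opposite direction from its ligand. It lies on chromosome 13 from 95567879 to 95581841. Ethanol mice 1 to 5 had 21.3, 24.8, 24.4, 24.6 and 21.8 CPM, and the controls ranged from 15.8 through a median of 18.7 to 23.4 CPM. 3 ethanol mice lay above every control, and 1 control, mouse 3, overlapped the ethanol range. The log2 change of 0.33 (SE 0.09, 95% interval 0.15 to 0.51, edgeR adjusted p = 0.00976) was below the fold minimum. Scaled to transcript length, the ratio of Crhbp to Crh was 4.55 ± 1.68 (SD, n = 5) in the ethanol mice and 1.98 ± 0.50 (SD, n = 7) in the controls. The lowest ethanol value, 2.79 in mouse 5, lay just under the highest control, 2.83 in mouse 7, and the ratio reached 7.29 in ethanol mouse 3.

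Crhr1, the main CRH receptor of the cortex, was not called. Its gene lies on chromosome 11 from 104023164 to 104066351. The ethanol mice had 27.4, 28.4, 23.9, 30.1 and 31.0 CPM and the controls 22.1 at the lowest, 24.1 at the median and 28.1 at the highest. 3 ethanol mice exceeded every control, whilst ethanol mice 1 and 3 lay within the control range. The difference of 0.21 on the log2 scale (SE 0.07, 95% interval 0.06 to 0.37, edgeR adjusted p = 0.0392) stayed below the fold minimum, and the adjusted p ran from 0.0133 to 0.117 as each mouse was left out.

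Crhr2, the second CRH receptor, with a preference for the urocortins, was the scarcest member at 20 to 101 counts per mouse, and it rose. The gene lies on chromosome 6 from 55067032 to 55110027. Ethanol mice 1 to 5 had 1.85, 1.28, 3.01, 2.52 and 2.37 CPM, against 0.641, 1.00 and 2.21 CPM as the lowest, median and highest control. 3 ethanol mice were above all controls, whereas mice 1 and 2 lay within the control range, mouse 2 level with control mouse 6 at 1.28 CPM. The log2 change was 0.84 (SE 0.27, edgeR adjusted p = 0.0320), and the call was held in 6 of the 12 fits that left out 1 mouse. It was lost without control mouse 1, 3 or 7 or ethanol mouse 3, 4 or 5, with adjusted p from 0.0520 to 0.0960 in those 6 fits and log2 changes from 0.70 to 0.81. As covariates, the oligodendrocyte, striatum and hippocampus scores gave log2 changes of 0.11, 4.61 and 2.56, none of them called (edgeR adjusted p = 0.892, 0.182 and 0.560). Choroid plexus markers moved with it unevenly. Of the 7 markers, 6 were tested and 4 called higher (Ttr, Kl, Kcnj13 and Otx2), and their sum was 122, 21.3, 996, 280 and 12.2 CPM in ethanol mice 1 to 5 and 8.08 to 22.8 CPM in the controls. Ethanol mouse 3 had the highest and mouse 4 the second highest value of both. Ethanol mouse 5, however, had a choroid plexus sum within the control range and a Crhr2 level above every control. None of the 7 markers was at 0 in all mice, Folr1 being the lowest in the controls at 0.174 CPM on average. Their part in the Crhr2 difference was not tested.

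**Figure D2:**
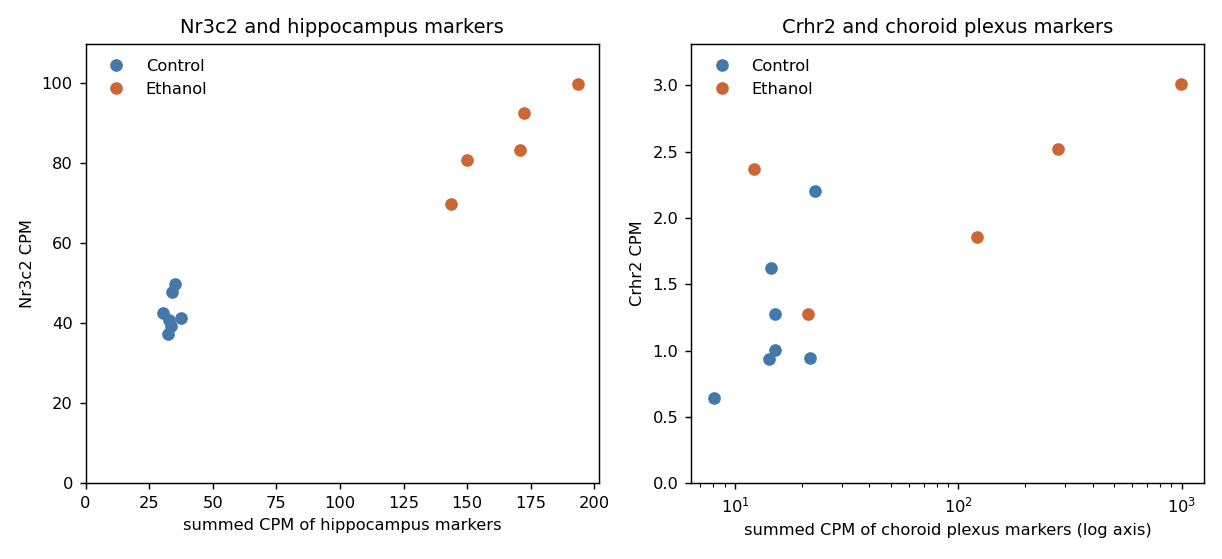
Level of Nr3c2 against the summed CPM of 9 hippocampal markers (left, linear axes) and of Crhr2 against the summed CPM of 7 choroid plexus markers (right, log horizontal axis), 1 point per mouse. On the left the controls (30.4 to 37.5 CPM of markers) and ethanol mice (144 to 194 CPM) form separate clouds; on the right 2 of the 5 ethanol mice lie within the control range of the markers (12.2 and 21.3 CPM).

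Most other peptides and receptors of the axis were scarce or silent in this tissue, but Adcyap1 and Adcyap1r1 were not. Of a list of 10 (Ucn, Ucn2, Ucn3, Pomc, Avp, Avpr1a, Avpr1b, Mc2r, Adcyap1 and Adcyap1r1), 4 passed the expression filter, of which 1 fell and none rose. The share called over all genes was 4.20% higher and 4.09% lower. The urocortin gene Ucn3 had no count in any mouse. Ucn and Ucn2 reached at most 0.383 and 0.406 CPM, and all exon bases of Ucn are shared with Trim54 on the opposite strand. Adcyap1, which encodes PACAP, a peptide that activates CRH neurons, fell. It had 13.0, 18.8, 11.1, 11.0 and 21.3 CPM in ethanol mice 1 to 5, all of them below the lowest control. The controls ran from 24.5 through 28.8 to 38.3 CPM, and the log2 change was -0.96 (SE 0.16, edgeR adjusted p = 0.000275). With the oligodendrocyte, striatum or hippocampus score as a covariate it was -0.66, -1.41 or -1.71 and no longer called (edgeR adjusted p = 0.0707, 0.743 and 0.506). The gene of its receptor, Adcyap1r1, had means of 192 CPM in the controls and 241 CPM in the ethanol mice. It differed by 0.33 (SE 0.07, edgeR adjusted p = 0.00242), below the fold minimum. Pomc, the precursor of the pituitary hormone ACTH, had a log2 change of 0.07 (95% interval -0.53 to 0.67, edgeR adjusted p = 0.887) at under 1.2 CPM. The vasopressin receptor gene Avpr1a had one of -0.38 (95% interval -1.28 to 0.52, edgeR adjusted p = 0.555).

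Of the corticosteroid receptors, Nr3c2, which encodes the mineralocorticoid receptor, rose to about double the control level and was the member with the smallest p-value, 73rd of all genes by p. It lies on the plus strand of chromosome 8, from 77625576 to 77971863. Ethanol mice 1 to 5 had 83.1, 99.7, 92.5, 80.6 and 69.8 CPM. The controls had 37.3 at the lowest, 41.2 at the median and 49.7 CPM at the highest. Every ethanol mouse was above every control, and the gap between the groups exceeded the whole range of the controls. The means were 85.2 ± 11.5 (SD, n = 5) and 42.7 ± 4.52 CPM (SD, n = 7), a log2 change of 1.0 (SE 0.09, 95% interval 0.82 to 1.18, edgeR adjusted p = 2.90e-07). Leaving out any 1 mouse left it between 0.93 and 1.06. Within the ethanol group, the order of the mice by Nr3c2 (mouse 2, 3, 1, 4, 5) was the same as their order by the sum of the hippocampal markers, but not as that by the hippocampal score, the mean log2 CPM of the markers (mouse 2, 1, 3, 5, 4, with 3.49, 3.04, 2.89, 2.80 and 2.30). Within the controls the orders differed, with mice 6, 5 and 4 highest for Nr3c2 and mice 1, 6 and 5 highest for the markers. With the hippocampal score as a covariate the log2 change was 0.12 and with the striatum score 1.11, neither of them called (edgeR adjusted p = 0.954 and 0.522), whereas with the oligodendrocyte score it was 1.06 and called (edgeR adjusted p = 2.17e-05).

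Nr3c1, which encodes the glucocorticoid receptor, was not called. It lies on chromosome 18 from 39543598 to 39652474. The ethanol mice had 132, 123, 108, 109 and 125 CPM, and the controls 99.4, 114 and 133 CPM as lowest, median and highest. All 5 ethanol values lay within the control range. The log2 change was 0.05 with a 95% interval from -0.12 to 0.21 (edgeR adjusted p = 0.696), which leaves out a change of the size seen for Nr3c2. Scaled to transcript length, Nr3c2 stood at 0.342 ± 0.040 (SD, n = 7) of the Nr3c1 level in the controls and at 0.661 ± 0.114 (SD, n = 5) in the ethanol mice. The ratio ran from 0.282 to 0.394 and from 0.515 to 0.787, without overlap.

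**Figure D3:**
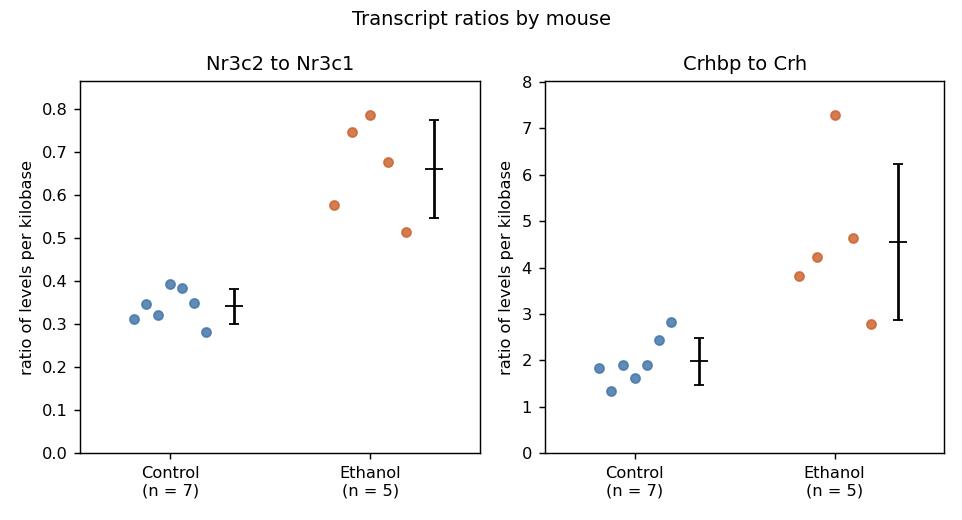
Ratios of transcript levels per kilobase by mouse (linear axes from 0): Nr3c2 to Nr3c1 on the left and Crhbp to Crh on the right, with the mean and SD of 7 controls and 5 ethanol mice. The receptor ratio separates the groups (0.282 to 0.394 against 0.515 to 0.787), whereas the highest control and lowest ethanol values of the right ratio nearly meet (2.83 and 2.79).

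Chaperones and coregulators hold the receptors ready for hormone and carry their effect on transcription. Of 14 such genes, all tested, none was called in either direction, with a median log2 change of -0.07, whereas 8.29% of all genes were called. Without the fold minimum, 3 were higher and 4 lower (edgeR adjusted p under 0.05), against 23.7% of all genes in either direction. The 3 were coregulators. Ncoa1, the steroid receptor coactivator, had a log2 change of 0.28 (SE 0.05, edgeR adjusted p = 0.000691), with 187 to 197 CPM in the ethanol mice and 142 to 176 CPM in the controls, so that the groups did not overlap. The corepressor gene Ncor1 had one of 0.21 (edgeR adjusted p = 0.0143) and Ncoa2 one of 0.21 (edgeR adjusted p = 0.0493). The 4 were chaperone genes, namely Bag1, Hspa8, Stip1 and Fkbp4, with log2 changes of -0.27, -0.27, -0.24 and -0.19 (edgeR adjusted p = 0.0182, 0.0308, 0.0312 and 0.0470). The Hsp90 genes Hsp90aa1 and Hsp90ab1 differed by -0.05 and -0.11 and did not pass (edgeR adjusted p = 0.610 and 0.207).

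Hsd11b1, whose enzyme turns inert 11-dehydrocorticosterone into corticosterone, rose. The gene lies on chromosome 1 from 192903918 to 192946489. The ethanol mice 1 to 5 had 13.0, 21.7, 13.1, 15.1 and 15.0 CPM, against 6.45, 9.52 and 11.8 CPM as the lowest, median and highest control. Every ethanol mouse was above every control, and mouse 2 stood well above the other ethanol mice. The means were 15.6 ± 3.53 (SD, n = 5) and 9.19 ± 1.66 CPM (SD, n = 7), a log2 change of 0.76 (SE 0.14, edgeR adjusted p = 0.000780). Without ethanol mouse 2 or any other single mouse it lay between 0.61 and 0.83 and kept its call. Ethanol mouse 2 also had the highest sum of hippocampal markers, but the other mice of the group followed a different order for the 2 values (2, 4, 5, 3, 1 for Hsd11b1 and 2, 3, 1, 4, 5 for the markers). With their score as a covariate the log2 change of Hsd11b1 was 0.25 and with the striatum score -0.077, neither of them called, whereas with the oligodendrocyte score it was 1.21 and called (edgeR adjusted p = 0.948, 0.995 and 4.51e-05).

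Of 8 other genes of glucocorticoid metabolism and efflux, 6 were tested and none was called, with a median log2 change of 0.08. The share called over all genes was 8.29%. H6pd, which supplies the cofactor of the Hsd11b1 enzyme, had 10.5 to 13.4 CPM in the ethanol mice and a log2 change of 0.14 (95% interval -0.03 to 0.31, edgeR adjusted p = 0.233). Hsd11b2, whose enzyme inactivates corticosterone, reached at most 0.182 CPM and was not tested. Abcb1b, an efflux transporter gene, had a log2 change of 0.42 (SE 0.12, edgeR adjusted p = 0.0169), below the fold minimum and with 4 of the 5 ethanol mice above every control. Its relative Abcb1a had one of -0.07 (95% interval -0.21 to 0.07) and did not pass. Srd5a1, which encodes a steroid reductase, had one of 0.13 (edgeR adjusted p = 0.318).

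Of the 3 receptor targets, 1 was called. Sgk1, the serum and glucocorticoid regulated kinase, fell. It lies on chromosome 10 from 21758083 to 21875802. Ethanol mice 1 to 5 had 53.1, 58.3, 51.8, 60.5 and 70.9 CPM, and the controls 58.3, 82.0 and 132 CPM as lowest, median and highest. 3 ethanol mice lay below every control, among them mouse 2, which lay below the lowest control, mouse 6, by less than 0.05 CPM. The controls spread widely, with mouse 7 at 132 and mouse 5 at 107 CPM above the other 5, and their coefficient of variation was 28.3% against 12.9% in the ethanol mice. The log2 change was -0.57 (SE 0.15, 95% interval -0.89 to -0.24, edgeR adjusted p = 0.0128). Without control mouse 7 it was -0.44 (edgeR adjusted p = 0.0155), below the fold minimum, and without the deepest library of each group it was -0.47 (edgeR adjusted p = 0.0542). Oligodendrocytes, which also express Sgk1, contributed markers with sums of 4453 to 5916 CPM in the controls and 2982 to 5322 CPM in the ethanol mice, and 2 of the 8, Mbp and Mobp, were called lower. Control mouse 7 had the highest sum, and control mouse 5 the lowest among the controls. With the score of these markers as a covariate the log2 change of Sgk1 was -0.47 and the call was lost (edgeR adjusted p = 0.264). The hippocampus score gave -0.20, also not called, and the striatum score -3.02, which was called (edgeR adjusted p = 0.968 and 0.00184).

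Tsc22d3, which encodes the anti-inflammatory protein GILZ, did not pass the test. It lies on chromosome X from 139440091 to 139501408. The ethanol mice had 51.5, 41.5, 36.6, 44.5 and 54.2 CPM and the controls 42.3, 54.9 and 79.1 CPM as lowest, median and highest. There were 2 ethanol mice below all controls and 3 within their range. The log2 change was -0.30 (95% interval -0.56 to -0.04, edgeR adjusted p = 0.0855), and it lay between -0.37 and -0.20 with any 1 mouse left out. Control mouse 7 was the highest and control mouse 6 the lowest of the controls for both Tsc22d3 and Sgk1. After group means were subtracted, Pearson's r between both genes was 0.84 over the 12 mice, given as a description.

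Fkbp5, a co-chaperone that lowers the hormone affinity of the glucocorticoid receptor and is induced by it, was not called. It lies on chromosome 17 from 28618058 to 28737521. The ethanol mice had 40.7, 27.0, 32.3, 29.7 and 31.2 CPM and the controls 24.5, 35.4 and 37.3 CPM as lowest, median and highest. Ethanol mouse 1 was above every control and the others were within their range. The log2 change was -0.03 with a 95% interval from -0.26 to 0.20 (edgeR adjusted p = 0.854). Control mouse 7, the highest for Sgk1 and Tsc22d3, was the lowest control for Fkbp5.

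**Figure D4:**
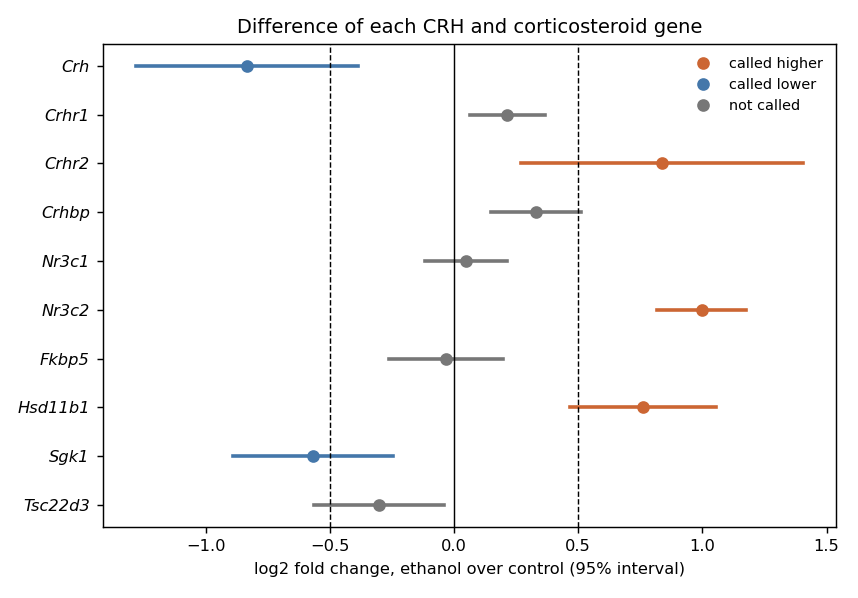
Log2 fold change of each member, ethanol over control, with its 95% interval from edgeR's quasi-likelihood test; dashed lines mark the fold minimum of 0.5. Nr3c2 (1.0), Hsd11b1 (0.76) and Crhr2 (0.84) lie to the right of it, Crh (-0.83) and Sgk1 (-0.57) to the left, and the intervals of Nr3c1 and Fkbp5 span 0 and stay inside both lines.

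A wider list of 20 genes known to be induced by glucocorticoids, all tested, held 1 gene called higher and 2 called lower, with a median log2 change of -0.19. Over all genes, 4.20% were called higher and 4.09% lower. Zbtb16, a transcription factor gene and a strong glucocorticoid target, rose. It had 62.8, 57.5, 50.4, 41.8 and 58.2 CPM in ethanol mice 1 to 5 and 20.5 to 41.2 CPM in the controls. Every ethanol mouse was above every control, narrowly so for mouse 4, and the log2 change was 0.75 (SE 0.13, edgeR adjusted p = 0.000672). Plin4, which encodes a lipid droplet protein, fell. It had 3.80, 2.68, 2.95, 2.73 and 3.83 CPM in the ethanol mice and 4.50, 6.86 and 14.2 CPM in the controls. No ethanol mouse reached the lowest control, and the log2 change was -1.44 (SE 0.25, edgeR adjusted p = 0.000596). Exons of Hdgfl2, on the opposite strand, cover 39.1% of the exon bases of Plin4. Cdkn1a, the gene of the cell cycle inhibitor p21, fell with a log2 change of -1.0 (SE 0.19, edgeR adjusted p = 0.000974). None of the 3 was called with the striatum or hippocampus score as a covariate. The log2 changes in these fits were -0.90 and -0.21 for Zbtb16, -0.64 and 1.08 for Cdkn1a, and -1.35 and -1.83 for Plin4.

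Among the remaining 17, without the fold minimum, 1 was higher and 4 were lower (edgeR adjusted p under 0.05). Over all genes tested, those called included, 23.7% passed that rule in either direction. Klf15, a metabolic transcription factor gene, had a log2 change of 0.39 (edgeR adjusted p = 0.00831). Hif3a, Klf9, Arrdc2 and Mt1 had log2 changes of -0.48, -0.22, -0.36 and -0.37 (edgeR adjusted p = 0.0200, 0.0207, 0.0458 and 0.0470). Per1 and Dusp1, which respond within minutes to hormone and to neuronal activity, had log2 changes of 0.42 and 0.60 but spread widely between mice and did not pass (edgeR adjusted p = 0.159 and 0.149). The number called lower was 4 without control mouse 6. The number called higher was 2 without control mouse 5 or ethanol mouse 1 or 2.

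**Figure D5:**
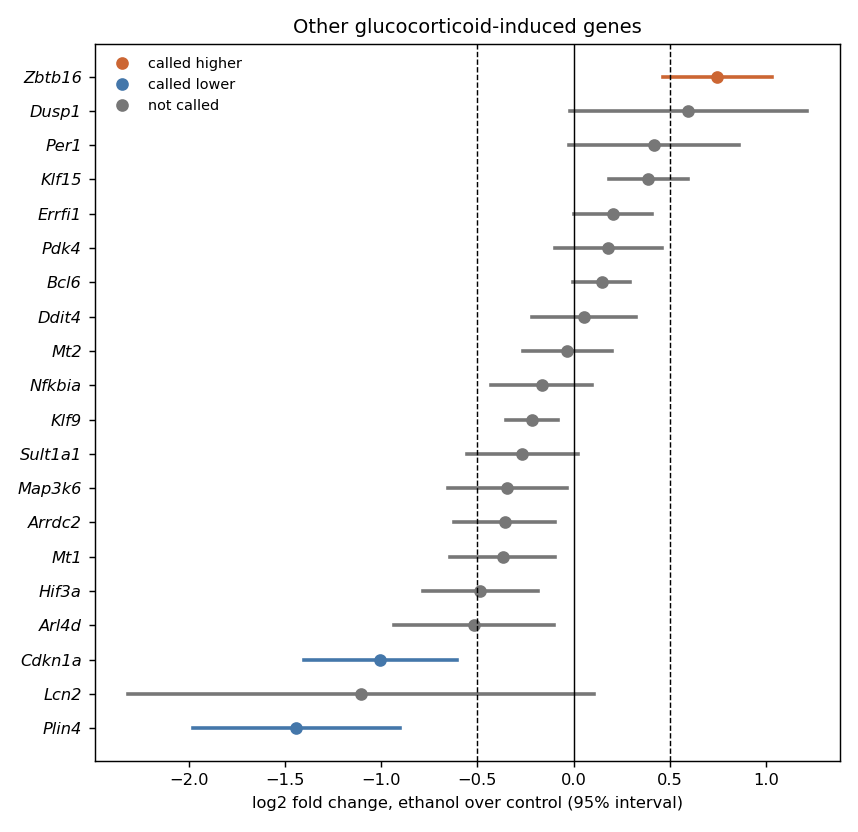
Log2 fold change of 20 other glucocorticoid-induced genes, ethanol over control, with 95% intervals from edgeR's quasi-likelihood test and dashed lines at 0.5 in size. Zbtb16 (0.75) is the 1 called higher and Cdkn1a (-1.0) and Plin4 (-1.44) are the 2 called lower, with the other 17 in grey on both sides of 0.

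Per kilobase of exon, Nr3c1 and Sgk1 had the highest levels of the members in the controls, at 14.7 ± 1.68 and 14.5 ± 4.11 RPKM (CPM per kilobase, SD, n = 7). Tsc22d3 (9.10 RPKM), Crhbp (8.42), Crhr1 (6.27), Nr3c2 (4.99), Crh (4.51), Fkbp5 (2.98), Hsd11b1 (1.84) and Crhr2 (0.231) followed. Each neighbour in this order overlapped the next in its range over the 7 controls, except Hsd11b1 and Crhr2, whose ranges were apart. In the ethanol mice Nr3c1 was highest at 15.2 RPKM, Crhbp came next at 10.6 RPKM and Nr3c2 followed at 9.96 RPKM, just above Sgk1 at 9.80 RPKM. Lengths are the union of all annotated exons and overstate the length of a transcript where isoforms differ.

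The genes whose levels varied most like those of a called member between mice of the same group were found by Pearson's r of log2 CPM after subtraction of group means over the 12 mice. For Nr3c2 these were Polh, Clec14a and Ints2 (r = 0.92, 0.91 and 0.90). For Hsd11b1 they were Gltp, Rorb and Lrif1 (r = 0.91, 0.91 and 0.91), and for Crhr2 Rasl10b, Tpbg and Surf4 (r = 0.91, 0.90 and 0.89). Crh was followed most closely by Urod, Ung and Ckb (r = 0.96, 0.95 and 0.95), and Sgk1 by Lrrc45, Dcbld2 and Itgb3 (r = 0.92, 0.89 and 0.88). These values describe 12 mice and are the highest among the 16059 genes tested.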

How the data were processed

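Total RNA of frozen cortex was extracted and sequenced by BGI. Per the study's methods, the authors checked reads with FastQC 0.11.9, aligned them with STAR to GRCm39 using Gencode Release 28, and counted them on genes with featureCounts. Strand and multi-mapping settings are not given in the sources used here. The authors deposited expected counts per gene symbol without normalization, and 61 symbols, none of them a member, held values that were not whole. Counts were rounded. All columns were matched to a mouse by name.

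Genes passing filterByExpr were TMM-normalized and compared by the quasi-likelihood test of edgeR, with p-values adjusted by Benjamini-Hochberg over all 16059 genes (R 4.3.3, edgeR 4.0.16, limma 3.58.1, DESeq2 1.42.0). The SE is the size of the log2 change divided by the square root of F. The fits were tested on simulated data. The lowest chi-square per degree of freedom between libraries of a group was 7.76, so no library was a duplicate. Log2 CPM used a prior count of 2. Floors cover counting error only.

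Members and lists were chosen with earlier results of these data known. Genes are named as members, as called genes of the 4 lists and the next 4 by p in each, and as the 3 most alike per called member. Hsp90aa1, Hsp90ab1, Stip1, Fkbp4, Ncoa2, Mt1, Per1, Dusp1, Ucn, Ucn2, Ucn3, Hsd11b2 and the marker genes fall outside this rule and were picked with their values in view. Positions are from Gencode release 39 of GRCm39, and promoters from RefSeq on GRCm38.p6. Exons of 5 members (Crhr2, Nr3c1, Nr3c2, Fkbp5 and Sgk1) overlap annotated genes on the opposite strand, which makes their counts uncertain if strand was not used, and the same holds for other named genes, with the largest shares of exon bases in Ucn, Plin4, Hsp90ab1, Neurod6, Ncor1, Stip1, Srd5a1, Bag1, Slc32a1, Cdkn1a, Kcnj13 and Abcb1a. Alternatives were DESeq2, limma voom, other normalization factors, filters and fold minimums, a block for replicate number, covariates made from marker scores, and mice left out.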

Additional observations from a re-analysis of the deposited data

Results flagged for a closer look

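Dixon gaps, which set 1 extreme mouse against its group, passed their critical value 5 times in 36 sets of values, and about 1.8 would do so by chance. Control mouse 7 had 79.1 CPM of Tsc22d3, where the next control had 57.3 CPM. Ethanol mouse 2 had 21.7 CPM of Hsd11b1, where the next ethanol mouse had 15.1 CPM. Control mouse 4 had 38.3 CPM of Adcyap1, where the next control had 30.4 CPM. The other 2 were library totals, 40690226 counts in control mouse 5 (next 32356909) and 42183031 counts in ethanol mouse 1 (next 33313165). Without the deepest library of each group, Crhr2 and Sgk1 lost their calls, with log2 changes of 0.85 and -0.47 (edgeR adjusted p = 0.0549 and 0.0542).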

How the results depend on the processing

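DESeq2, limma voom, relative log expression or upper quartile factors and both other count filters each called 3 members higher and 2 lower, as reported. Without a fold minimum 5 members were higher and 2 lower, and with a minimum of 1 none was called in either direction, nor was any gene of the lists called higher or Adcyap1 called lower (0 each). Leaving out single mice gave between 2 and 3 members higher and between 1 and 2 lower. Marker scores used as covariates overlap group membership. With the oligodendrocyte score (57.1% of the variance of group membership), 376 genes were called higher and 478 lower, 2 members higher (Nr3c2 and Hsd11b1), 0 members lower and 0 genes of the CRH family list lower. With the striatum score 11 genes were called higher and 5 lower, 0 members higher and 1 lower (Sgk1, -3.02). With the hippocampus score 5 genes were called higher and 2 lower, and 0 members in either direction. Under the striatum score, log2 changes turned sign to 0.28 for Crh, -0.077 for Hsd11b1 and -0.90 for Zbtb16, and under the hippocampus score to -0.21 for Zbtb16 and 1.08 for Cdkn1a. Members that were not called also turned sign, under the striatum score Crhr1 to -0.57, Nr3c1 to -0.46 and Fkbp5 to 1.27, and under the hippocampus score Nr3c1 to -0.37 and Tsc22d3 to 0.23, whereas Tsc22d3 was -1.84 under the striatum score (edgeR adjusted p = 0.166). Both region scores left 0 genes of the CRH family list called lower and 0 glucocorticoid-induced genes called in either direction. Without the deepest library of each group, 1 member was lower and 2 glucocorticoid-induced genes were higher.

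Over all genes, 1947 were higher and 1863 lower without a fold minimum, and 242 and 282 with a minimum of 1. Without the minimum, 1 CRH family gene was higher, 3 chaperone and coregulator genes were higher and 4 lower, 1 metabolism gene was higher, and 2 glucocorticoid-induced genes were higher and 6 lower. Leaving out a mouse gave 1 to 2 glucocorticoid-induced genes called higher and 2 to 4 lower.

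Replicate numbers of different mice do not pair them, with same-number correlations from -0.11 to 0.02. With the replicate block over 10 mice, Crhr2 lost its call (log2 change 0.75, edgeR adjusted p = 0.106), leaving 2 members higher and 2 lower, and 2 glucocorticoid-induced genes were higher. The cause was not tested for any of these changes. Crhr2 had the fewest counts of the members, 20 to 101 per mouse.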
